A study of Homo sapiens with 6 samples.

Results

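The zinc finger genes on the short arm of chromosome 19, from 19p13.3 to 19p13.2, were examined in a HEK293 line made to overexpress BAHD1 and in its control line. The members were 43 listed genes of this stretch with ZNF symbols. A probe set was used where its annotation names only 1 of them. This gave 41 measured genes, with 1 probe set each, among 21062 probe sets that name at least 1 gene. ZNF878 was not analysed here, and ZNF490 is named only on a probe set that also lists ZNF564. The probe sets of ZNF559, ZNF177, ZNF20 and ZNF625 also list a readthrough transcript, ZNF559-ZNF177 or ZNF625-ZNF20, so that part of their signal may come from it.

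The genes encode C2H2 zinc finger proteins, in which each finger is a small fold held by a zinc ion that contacts a few bases of DNA. Many such proteins also carry a KRAB domain, which recruits the corepressor TRIM28 and through it SETDB1, a histone H3K9 methyltransferase, and HP1 proteins. The genes arose by repeated tandem duplication, so neighbours resemble each other. They are known for carrying H3K9me3 over their own 3′ parts, where ZNF274 recruits SETDB1. BAHD1 is a chromatin repressor reported to act with HP1 proteins, histone deacetylases and SETDB1.

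Total RNA was hybridised to Affymetrix HuGene 1.0 ST arrays from HEK-BAHD1 cells (3 arrays) and HEK-CT cells (3 arrays). Both lines were made by Flp-In recombination in HEK293, a human embryonic kidney cell line, and were kept in hygromycin. HEK-BAHD1 cells carry 1 copy of BAHD1 cDNA behind the CMV promoter, and the same site in HEK-CT cells holds an out-of-frame β-galactosidase sequence per the labels, or the vector alone per the study's methods. Each line was 1 stable pool grown in separate flasks, so the p-values below measure the spread between cultures of a pool and leave out the spread between pools. Per the study's methods, RNA of HEK-BAHD1 replicate 2 was taken at a later passage than that of replicate 1 and of the control. These methods name no replicate 3 there, and do not say whether their replicate numbers are those of the arrays.

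The overexpressed gene went against the labels. BAHD1 had log2 signals of 6.75, 7.0 and 6.76 on the arrays labelled HEK-BAHD1, and 10.06, 9.81 and 9.93 on those labelled HEK-CT. Its level was far lower under the HEK-BAHD1 label (log2 fold change -3.10, with a standard error, SE, of 0.0925, adjusted p = 3.12e-05, limma). Every direction below is that of the deposited labels, and would turn round if the labels were exchanged.

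Values are log2 signals, and a log2 fold change is the mean on the arrays labelled HEK-BAHD1 minus the mean on those labelled HEK-CT. A gene was called at a Benjamini-Hochberg adjusted p under 0.05 over all 21062 probe sets and a difference of group medians above 0.2. Array medians over these probe sets lay between 6.40 and 6.46. HEK293 cells express neuronal intermediate filaments, and NEFL and INA averaged 9.93 and 9.79 over the 6 arrays, with VIM at 11.2. NEFL and NEFM were called higher and VIM lower (log2 fold changes 0.40, 0.77 and -0.28). NES, NEFM and PAX2, listed with them, averaged 5.14, 4.87 and 5.74, below the median probe set. Of 9 markers of fibroblasts, blood cells and keratinocytes, COL3A1 was called (lower, log2 fold change -0.31). The log2 of their summed signal ranged from 8.22 to 8.35 on the arrays labelled HEK-BAHD1 and from 8.25 to 8.38 on those labelled HEK-CT, and its part in the results below was not tested.

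In chromosome order the members form 3 blocks, a new one starting where neighbours lie over 1 Mb apart in GRCh38. Block 1 holds ZNF554, ZNF555, ZNF556, ZNF57 and ZNF77. Block 2 holds the 13 genes from ZNF414 to ZNF846, and block 3 the 25 genes from ZNF653 to ZNF791, of which 23 were measured. All positions given here are on chromosome 19.

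The promoter windows of block 3 are related to each other, and 5 of them are shown because close relatives among them differed in call. Other close relatives in the block were both called lower. Among these were ZNF823 and ZNF443 (83.6% identical over the aligned bases) and ZNF44 and ZNF799 (81.4%). Each run is the 250 bases before the transcription start in GRCh38.p14 from RefSeq, 5′ to 3′ on the gene's strand, with every copy of the CCAAT box, CCAAT on either strand, in capitals. ZNF443 (chr19:12441022-12441271, minus strand) and ZNF563 (chr19:12333634-12333883, minus strand) had 82.4% identical bases over the aligned part of their 300-base windows. ZNF69 (chr19:11887532-11887781, plus strand), ZNF439 (chr19:11848476-11848725, plus strand) and ZNF700 (chr19:11924857-11925106, plus strand) were 86.3% to 87.8% identical.
ZNF443: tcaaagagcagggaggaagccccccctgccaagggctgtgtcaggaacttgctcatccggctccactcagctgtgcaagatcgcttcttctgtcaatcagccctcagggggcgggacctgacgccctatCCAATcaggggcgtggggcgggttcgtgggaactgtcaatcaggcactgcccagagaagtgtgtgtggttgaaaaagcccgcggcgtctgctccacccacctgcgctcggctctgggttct
ZNF563: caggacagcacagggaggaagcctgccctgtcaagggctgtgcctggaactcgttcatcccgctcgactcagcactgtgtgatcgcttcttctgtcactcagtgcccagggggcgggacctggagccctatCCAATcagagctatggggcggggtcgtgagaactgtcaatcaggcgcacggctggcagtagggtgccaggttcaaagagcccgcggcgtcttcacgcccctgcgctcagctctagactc
ZNF69: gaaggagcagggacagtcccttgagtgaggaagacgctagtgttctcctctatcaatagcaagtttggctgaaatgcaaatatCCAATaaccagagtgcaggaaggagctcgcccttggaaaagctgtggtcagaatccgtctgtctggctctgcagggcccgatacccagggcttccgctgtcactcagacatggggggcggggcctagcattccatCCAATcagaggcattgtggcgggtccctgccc
ZNF439: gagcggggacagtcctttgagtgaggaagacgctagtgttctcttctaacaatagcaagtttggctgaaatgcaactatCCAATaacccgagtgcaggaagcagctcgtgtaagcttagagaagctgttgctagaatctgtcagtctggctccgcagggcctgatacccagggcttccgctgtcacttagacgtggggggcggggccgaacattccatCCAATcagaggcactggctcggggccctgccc
ZNF700: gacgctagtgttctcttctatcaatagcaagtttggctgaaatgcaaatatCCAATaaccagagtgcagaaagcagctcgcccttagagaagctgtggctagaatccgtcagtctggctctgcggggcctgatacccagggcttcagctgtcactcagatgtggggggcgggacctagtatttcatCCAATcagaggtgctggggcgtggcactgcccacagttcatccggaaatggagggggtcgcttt

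In block 2 another motif recurs. The palindrome TGACGTCA, the full site of the CREB and ATF family, is in capitals in the windows of ZNF266 (chr19:9435574-9435823, minus strand), ZNF426 (chr19:9538646-9538895, minus strand) and ZNF561 (chr19:9621233-9621482, minus strand), which also show the 250 bases before the start.
ZNF266: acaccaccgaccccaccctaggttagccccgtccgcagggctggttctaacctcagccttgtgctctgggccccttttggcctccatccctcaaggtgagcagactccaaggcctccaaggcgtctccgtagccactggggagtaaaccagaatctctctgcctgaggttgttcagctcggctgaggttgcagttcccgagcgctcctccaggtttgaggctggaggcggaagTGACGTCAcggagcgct
ZNF426: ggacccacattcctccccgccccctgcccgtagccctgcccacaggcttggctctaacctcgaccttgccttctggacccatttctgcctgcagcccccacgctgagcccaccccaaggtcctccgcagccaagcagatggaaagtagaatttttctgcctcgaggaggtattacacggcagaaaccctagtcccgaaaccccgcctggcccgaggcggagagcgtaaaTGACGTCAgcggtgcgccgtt
ZNF561: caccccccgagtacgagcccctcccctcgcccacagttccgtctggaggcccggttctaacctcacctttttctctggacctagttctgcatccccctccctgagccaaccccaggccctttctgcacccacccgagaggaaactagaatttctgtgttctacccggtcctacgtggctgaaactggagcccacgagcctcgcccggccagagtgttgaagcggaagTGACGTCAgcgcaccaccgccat

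Of the 41 measured members, 20 were called lower on the arrays labelled HEK-BAHD1, none was called higher and 21 were not called. Over all probe sets 6.39% were called lower and 6.79% higher, which is 1345 and 1430 probe sets. With arrays centred on their medians these became 1912 and 1125, and 22 members were lower and none higher. The median log2 fold change of the members was -0.25, against 0.003 over all probe sets, and 38 of the 41 values were below 0. At an unadjusted p under 0.05 in limma, 27 members were lower and none higher, against 3118 and 3045 of all 21062 probe sets. The LPE test, which pools the error of genes of like signal, called 19 lower and none higher. It called 7.37% of all probe sets lower. Groups did not overlap, with every array labelled HEK-BAHD1 below every array labelled HEK-CT, for 28 members (68.3%), against 16.9% of all probe sets. No member lay wholly above. In bulk RNA, fewer cells expressing a gene and less RNA per cell cannot be told apart. Among the called members, log2 fold changes ran from -0.90 in ZNF443 to -0.25 in ZNF317 and ZNF136, with a median of -0.43.

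**Figure D1:**
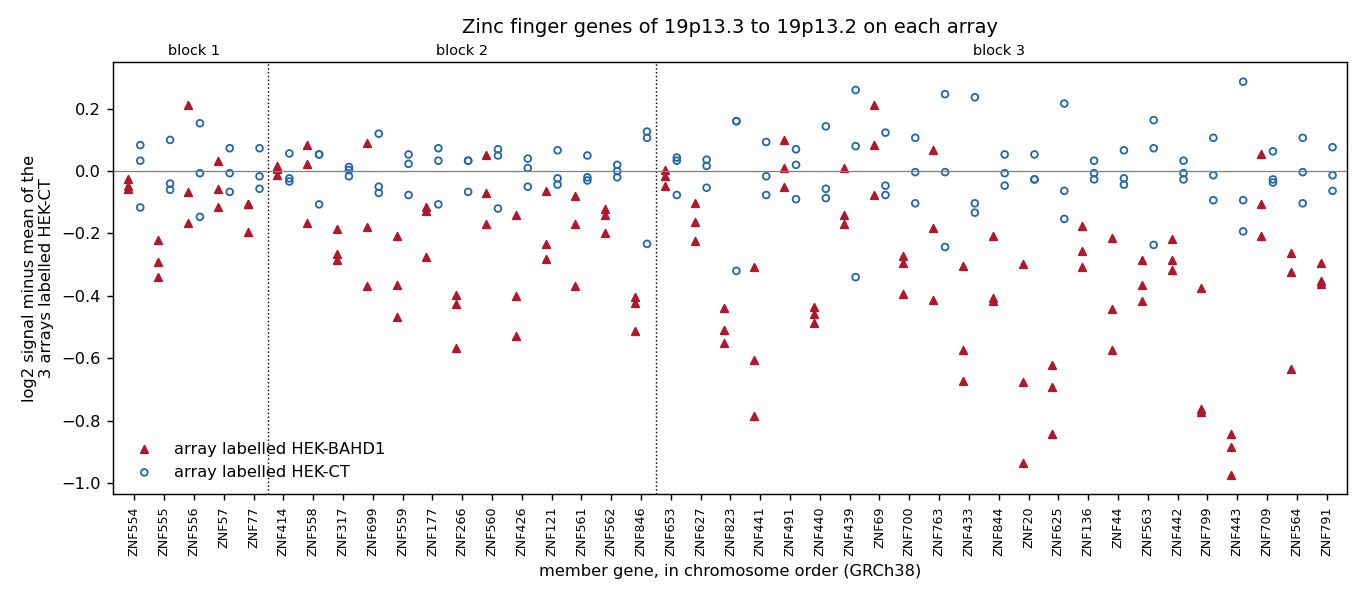
Log2 signal of each measured member (horizontal axis, chromosome order) on each array, as the difference from the mean of the 3 arrays labelled HEK-CT (vertical axis); triangles are arrays labelled HEK-BAHD1 and open circles arrays labelled HEK-CT. For 28 members all triangles lie below all circles, and ZNF443 lies farthest down.

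Block 3 held most of the calls. Of its 23 measured genes, 15 were lower and 8 were not called, and the median log2 fold change was -0.34. ZNF443, ZNF625, ZNF799 and ZNF20 had the largest differences. Whether the size of change goes with a KRAB domain was not tested, since protein sequences were not used here.
ZNF443 had signals of 5.46, 5.33 and 5.42 on the arrays labelled HEK-BAHD1, against 6.21, 6.11 and 6.59 on those labelled HEK-CT. The arrays labelled HEK-BAHD1 were close together and the highest of them lay well below the lowest array labelled HEK-CT. This gave a log2 fold change of -0.90 (SE 0.120, adjusted p = 0.00433, limma), which is 53.6% of the signal on the arrays labelled HEK-CT. With the labels exchanged it would be a 1.87-fold higher signal.
ZNF625 had 6.69, 6.76 and 6.54 on the arrays labelled HEK-BAHD1, against 7.32, 7.60 and 7.23 on those labelled HEK-CT. Its log2 fold change was -0.72 (SE 0.105, adjusted p = 0.00614, limma), with no overlap between groups.
ZNF20, named KOX13 in older lists, is the next gene and shares the readthrough transcript with ZNF625. It had 5.14, 5.52 and 4.88 on the arrays labelled HEK-BAHD1, against 5.79, 5.87 and 5.79 on those labelled HEK-CT. The arrays labelled HEK-BAHD1 spread widely, with replicate 2 the highest, and those labelled HEK-CT were close together. This gave a log2 fold change of -0.64 (SE 0.144, adjusted p = 0.0281, limma).
ZNF799, which lies beside ZNF443, had 6.88, 7.27 and 6.87 on the arrays labelled HEK-BAHD1, against 7.55, 7.75 and 7.63 on those labelled HEK-CT. Replicate 2 was again the highest of its line, and the groups did not overlap. This gave a log2 fold change of -0.64 (SE 0.115, adjusted p = 0.0129, limma).

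The other 11 called genes of block 3 had log2 fold changes between -0.57 and -0.25, all with groups that did not overlap. ZNF441 was at -0.57, ZNF433 at -0.52, ZNF823 at -0.50 and ZNF440 at -0.46. ZNF440 was the tightest of these on the arrays labelled HEK-BAHD1, with 6.66, 6.63 and 6.68 there and 7.03, 7.26 and 7.06 on those labelled HEK-CT. ZNF44, known from older work as KOX7, was at -0.41 and ZNF564 at -0.41. ZNF844 was at -0.34, ZNF791 at -0.34, ZNF700 at -0.32, ZNF442 at -0.27 and ZNF136 at -0.25. In chromosome order, the 6 measured genes from ZNF433 to ZNF44 were all called, as were the 3 from ZNF442 to ZNF443. Between these runs lies ZNF563, not called (log2 fold change -0.36, adjusted p = 0.0608, limma), although its groups did not overlap, with 3.33, 3.41 and 3.28 on the arrays labelled HEK-BAHD1 and 3.46, 3.86 and 3.77 on those labelled HEK-CT.
The remaining 7 uncalled genes of block 3 lay at -0.18 for ZNF763, -0.16 for ZNF627, -0.10 for ZNF439, -0.09 for ZNF709, -0.02 for ZNF653, 0.02 for ZNF491 and 0.07 for ZNF69. Groups overlapped in all of these but ZNF627. ZNF653 encodes a repressor of the nuclear receptor SF-1 and stands at the edge of the block. Its 95% confidence interval ran from -0.15 to 0.11, whereas that of ZNF763 ran from -0.53 to 0.18, so the data bound the first far more tightly than the second.
Over all blocks, 8 of 16 members on the plus strand and 11 of 23 on the minus strand were called lower, with median log2 fold changes of -0.21 and -0.36. In block 3 these were 6 of 10 and 9 of 12, with medians of -0.28 and -0.46. ZNF559 and ZNF763 are left out of these counts because the promoter table gave no strand for them.

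**Figure D2:**
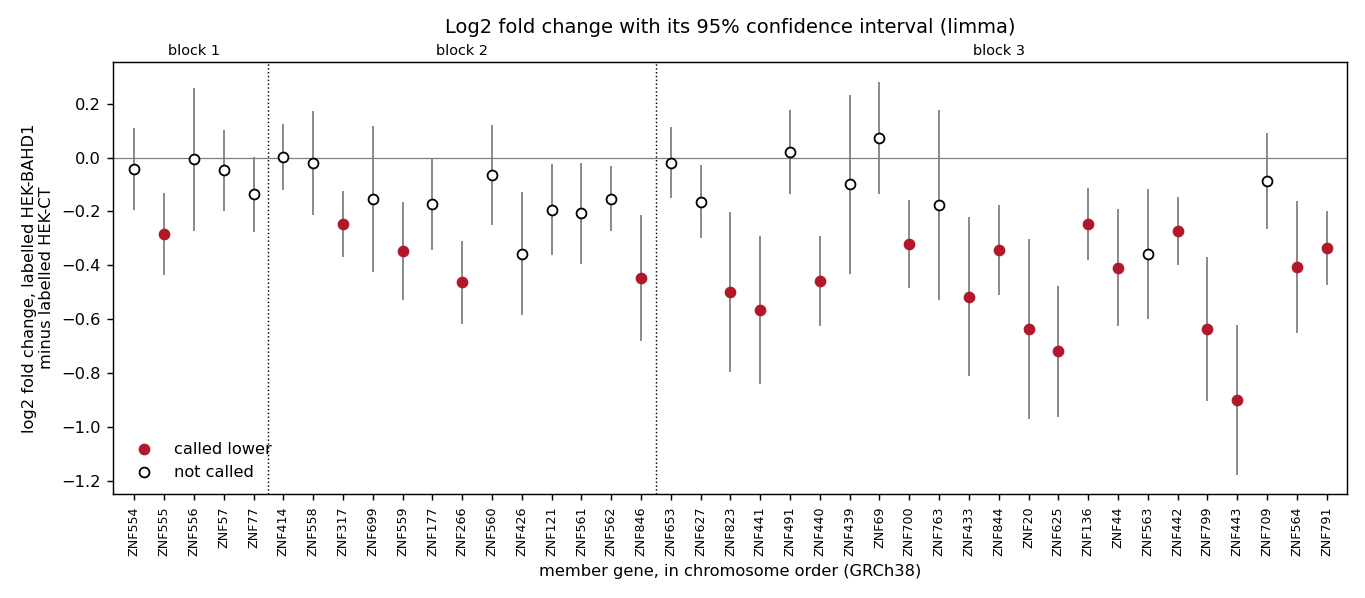
Log2 fold change of each measured member (vertical axis, arrays labelled HEK-BAHD1 less arrays labelled HEK-CT) in chromosome order (horizontal axis), with its 95% confidence interval from limma as the bar; filled points are called lower. Called genes are 1 of 5 in block 1, 4 of 13 in block 2 and 15 of 23 in block 3.

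In block 2, 4 of 13 genes were lower and 9 were not called, with a median log2 fold change of -0.19. ZNF266 had 7.99, 7.96 and 7.82 on the arrays labelled HEK-BAHD1, against 8.32, 8.42 and 8.42 on those labelled HEK-CT. The groups were separated by more than either group's range, and the difference in log2 signal was -0.46 (SE 0.0659, adjusted p = 0.00563, limma).
ZNF846 had 2.67, 2.65 and 2.56 on the arrays labelled HEK-BAHD1 and 3.20, 3.18 and 2.84 on those labelled HEK-CT (log2 fold change -0.45, adjusted p = 0.0274, limma). Its mean signal exceeded that of only 2.0% of the tested probe sets, and whether it stood above background could not be read from these values.
ZNF559 had 7.44, 7.60 and 7.34 on the arrays labelled HEK-BAHD1 and 7.73, 7.86 and 7.83 on those labelled HEK-CT (log2 fold change -0.35, adjusted p = 0.0279, limma). ZNF317 had 7.92, 7.82 and 7.84 on the arrays labelled HEK-BAHD1, against 8.11, 8.09 and 8.12 on the arrays labelled HEK-CT (log2 fold change -0.25, adjusted p = 0.0243, limma). The difference in ZNF317 was small and rested on groups that each agreed closely.
Uncalled genes of the block included the 2 uncalled members with the highest signal. ZNF121, whose protein binds MYC, had 8.77, 8.60 and 8.55 on the arrays labelled HEK-BAHD1 and 8.81, 8.79 and 8.90 on those labelled HEK-CT. The groups were just apart, and the log2 fold change of -0.19 did not pass (adjusted p = 0.124, limma). ZNF426, a repressor also named K-RBP that binds the Kaposi sarcoma herpesvirus transactivator RTA, had 7.73, 7.99 and 7.60 on the arrays labelled HEK-BAHD1 and 8.08, 8.17 and 8.14 on those labelled HEK-CT. Its log2 fold change of -0.36 missed the threshold narrowly (adjusted p = 0.0507, limma), and passed without HEK-BAHD1 replicate 2 (adjusted p = 0.0169, limma).
ZNF561, ZNF177 and ZNF562 were at -0.21, -0.17 and -0.15, with groups that did not overlap and adjusted p-values of 0.136, 0.161 and 0.0949 (limma). ZNF699, the human relative of the Drosophila ethanol tolerance gene hangover, was at -0.15 with overlapping groups. ZNF560 and ZNF558, whose protein represses SPATA18 in human neural progenitors, were at -0.06 and -0.02, and ZNF414 was at 0.003. Thus the genes at the near end of the block, ZNF414 and ZNF558, differed by less than the spread of their replicates, whereas from ZNF559 to ZNF846 the groups did not overlap for any gene but ZNF560.

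In block 1, ZNF555 alone was called. It had 6.96, 6.91 and 7.03 on the arrays labelled HEK-BAHD1, against 7.21, 7.35 and 7.19 on those labelled HEK-CT (log2 fold change -0.28, SE 0.0655, adjusted p = 0.0299, limma). ZNF77 was at -0.14 with groups that did not overlap (adjusted p = 0.177, limma). ZNF57, ZNF554 and ZNF556 were at -0.05, -0.04 and -0.01 with overlapping groups. The call of ZNF555 was lost with any single array left out, with an adjusted p between 0.0513 (HEK-BAHD1 replicate 3 left out) and 0.0855 (HEK-BAHD1 replicate 2 left out), and also by the LPE test (adjusted p = 0.115).

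The 3 arrays of a line did not deviate alike over the members. HEK-BAHD1 replicate 2 was the highest array of its line for 22 of the 41 members, and HEK-BAHD1 replicate 3 the lowest for 24. Relative to each member's mean over the 6 arrays, the median member was at -0.13, -0.06 and -0.19 on HEK-BAHD1 replicates 1, 2 and 3, against 0.10, 0.13 and 0.14 on HEK-CT replicates 1, 2 and 3. The passage of each array is not stated in the methods, and its part in the position of HEK-BAHD1 replicate 2 was not tested.
With 1 array left out, the number of members called lower was 6 without HEK-BAHD1 replicate 3 or HEK-CT replicate 2, 7 without HEK-CT replicate 3, 9 without HEK-BAHD1 replicate 1, 11 without HEK-CT replicate 1 and 14 without HEK-BAHD1 replicate 2. The share of all probe sets called lower also shrank, to between 2.76% and 4.45%. ZNF443, ZNF625, ZNF799, ZNF266, ZNF440 and ZNF791 were called in every one of these 6 fits, with an adjusted p of at most 0.0484 for any of them (limma). The other 14 called genes lost the call in at least 4 of the 6. No called member changed direction in any of them.

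Called members were found at high and at low signal. Across the 41 members the log2 fold change and the mean signal had a Pearson r of -0.07, given as a description over genes that share arrays and sequence. Of the 22 members above the median signal of the tested probe sets, 12 were called lower, against 10.1% of all probe sets above it. Of the 19 below it, 8 were called lower, against 2.66% of all probe sets there.

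**Figure D3:**
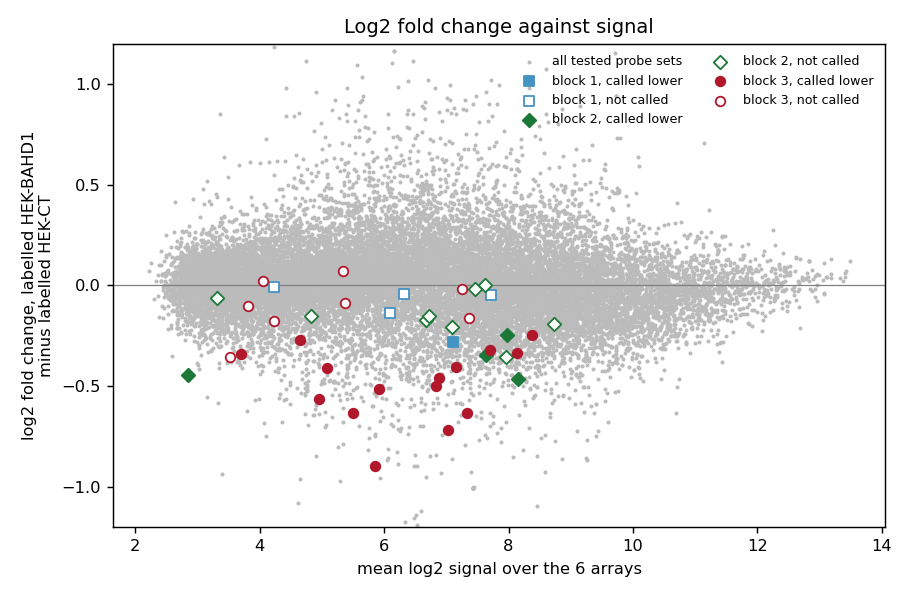
Log2 fold change (vertical axis, arrays labelled HEK-BAHD1 less arrays labelled HEK-CT, shown between -1.2 and 1.2) against the mean log2 signal over the 6 arrays (horizontal axis); grey points are all tested probe sets, 30 of which lie outside the axis, and coloured symbols the members by block, filled where called lower. Called members are spread over the whole range of signals from ZNF846 at 2.85 to ZNF136 at 8.37.

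Other genes inside the same blocks were compared with the members. Of 18 genes without a zinc finger symbol that lie between the first and the last member of a block, none was called. Over all probe sets 6.39% were called lower and 6.79% higher. The 18 had a median log2 fold change of 0.01 and a median signal of 4.49. Of all probe sets below the median signal, only 2.66% were called lower and 4.54% higher. At an unadjusted p under 0.05, 2 of the 18 genes were lower and 1 higher, against 3118 and 3045 of all 21062 probe sets (limma). In block 2 these were 15 genes, among them MUC16 at -0.15, MYO1F at 0.11, ADAMTS10 at 0.28 and a group of olfactory receptors, with a median of 0.03. Their median signal was 4.26, under the median of the members there, which was 7.46. In block 3 there were 3 such genes, CNN1, ELOF1 and ECSIT, at -0.21, -0.18 and -0.18. ELOF1, a transcription elongation factor, and ECSIT, a mitochondrial complex I assembly factor, both lie between ZNF653 and ZNF627 and had groups that did not overlap. Both were brighter than the median probe set, with mean signals of 10.25 and 7.845. No such gene was measured in block 1.
Over chromosome 19 as a whole, genes without a zinc finger symbol numbered 1057, of which 33 were lower and 58 higher, with a median of 0.02. The 200 other ZNF genes of chromosome 19 had 91 lower and 3 higher, with a median of -0.27. The 256 ZNF genes of other chromosomes had 46 lower and 7 higher, with a median of -0.09. Both lists took every symbol that starts with ZNF and a digit, so that of other chromosomes includes the antisense RNA ZNF436-AS1. The share called lower was therefore 48.8% among the members and 45.5% among the other ZNF genes of the chromosome. These shares are descriptions and the differences between them were not tested.

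**Figure D4:**
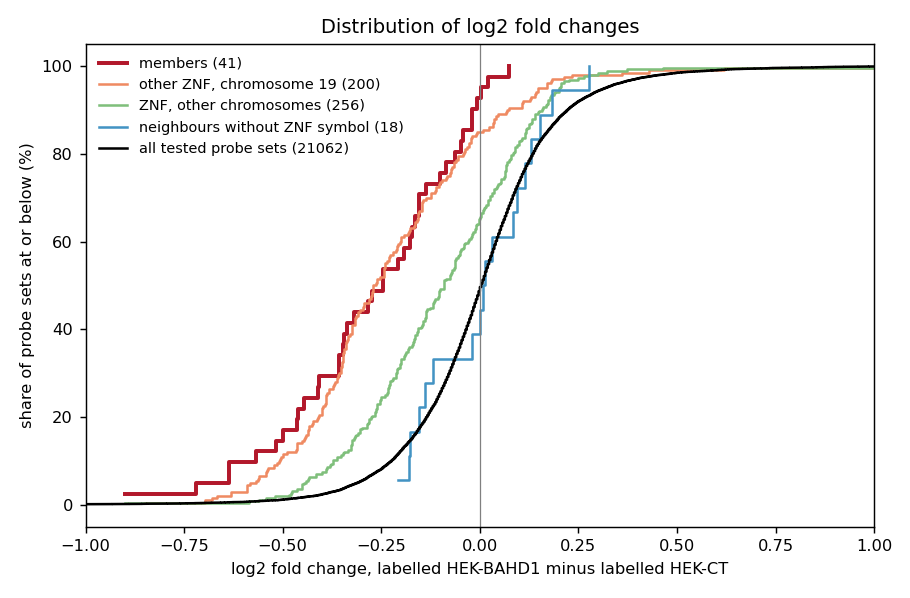
Share of probe sets at or below each log2 fold change (vertical axis, %; horizontal axis, log2 fold change as defined above, shown between -1 and 1, with 58 probe sets outside) for the members and 4 other sets. The members and the other ZNF genes of chromosome 19 lie to the left of all probe sets, with medians of -0.25 and -0.27. The 18 neighbours without a zinc finger symbol have a median of 0.01, at a median signal of only 4.49.

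Partners of KRAB zinc finger proteins and factors of H3K9 methylation were read from a list of 25 genes. Of these, 4 were lower (against 6.39% of all probe sets), none was higher and 21 were not called. The list was bright, with a median signal of 8.755, and 10.1% of all probe sets above the median signal were called lower. At an unadjusted p under 0.05, 8 of the 25 genes were lower and 4 higher, against 3118 and 3045 of all 21062 probe sets (limma). Without the threshold on medians 4 were lower (against 6.77% of all probe sets) and 2 higher, CHD3 and DNMT3A. These were at 0.22 and 0.20 (adjusted p = 0.0401 and 0.0392, limma), with differences of medians of 0.20 and 0.19. DNMT3B and MORC2 were both at 0.16 and not called. In these 4 genes, every array labelled HEK-BAHD1 lay above every array labelled HEK-CT, as in 3509 of all 21062 probe sets. In 10 of the 25 (40.0%) every such array lay below, against 16.9% of all probe sets. These were the 4 called lower and the uncalled DAXX, ATRX, UHRF1, PPHLN1, SUV39H1 and HDAC2. By the LPE test 5 of the list were lower (against 7.37%) and none higher. After quantile normalization again 3 were lower (against 6.29%) and 1 higher. ATF7IP, which stabilises SETDB1 in the nucleus, was at -0.38 (adjusted p = 0.0128, limma) and kept its call with any array left out. DNMT1, the maintenance DNA methyltransferase, was at -0.27 (adjusted p = 0.0384, limma). MPHOSPH8, an H3K9me3 reader of the HUSH complex, was at -0.25 (adjusted p = 0.0445, limma), and ZNF274 was at -0.24 (adjusted p = 0.0198, limma). These 3 calls were lost in most fits with 1 array left out, in which fewer of all probe sets were also called lower. With 1 array left out, DNMT1 was called only without HEK-CT replicate 2, and MPHOSPH8 and ZNF274 only without HEK-BAHD1 replicate 2, with an adjusted p of at most 0.126 in the other such fits. TRIM28, the shared corepressor, was at 0.03 and SETDB1 at -0.03. CBX1, CBX3 and CBX5, which encode the HP1 proteins, were at 0.05, 0.11 and -0.02, and none of these 5 was called.

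Promoter windows of 300 bases, 250 before and 50 after the start, were found for 41 of the 43 members, 4 of them with a pair of windows, which gave 45 in all. ZNF559 and ZNF763 had none. CCAAT was found in 33 of the 45 windows (73.3%), against 34.6% of all 35116 windows, 44.3% of windows of other ZNF genes of chromosome 19 and 37.4% of those of ZNF genes elsewhere. In block 3 it was in 23 of 26 windows, in block 1 in 6 of 6 and in block 2 in 4 of 13. GGGCGG, the core of the SP1 site, was in 38 of the 45 (84.4%), against 45.0% of all windows. It was in 60.7% of windows of other ZNF genes of chromosome 19 and 56.2% of those of ZNF genes elsewhere. The letters of the other motifs searched were CCGGAAG for ETS factors, ATGGCGGC for YY1, GCGCATGC for NRF1, TATAAA for the TATA box and TGACGTCA for CREB, each on either strand and none held within another. ETS letters were in 5 of the 45 windows (11.1%), against 45.4% of windows of the other ZNF genes of chromosome 19 and 10.3% of all. No member window held TATAAA, which is in 11.5% of all windows. It is also rare in windows of other ZNF genes, with 3.44% on chromosome 19 and 5.59% elsewhere.
TGACGTCA was in 5 member windows, against 1.85% of all windows. These were ZNF266, ZNF426, ZNF121, ZNF561 and ZNF562, all in block 2 on the minus strand and within a run of 6 members that is broken only by ZNF560. Their log2 fold changes were -0.46, -0.36, -0.19, -0.21 and -0.15, each with groups that did not overlap, and ZNF266 alone was called. These windows resemble each other, ZNF561 and ZNF562 with 82.8% identical bases and ZNF121 and ZNF561 with 81.2%, so these matches are not independent of each other.
Over all members with a window, CCAAT was in those of 18 of 19 called genes and 12 of 20 uncalled ones. Within block 3 it was in the windows of 15 of 15 called genes and 6 of 7 uncalled ones. Blocks differ both in their share of CCAAT windows and in their share of calls, and the relation was not tested. The windows of ZNF439 and ZNF69 shared the most identical bases of 985 pairs, 259, and neither gene was called. ZNF700, 87.8% identical to ZNF69 over the aligned bases, had 7.57, 7.59 and 7.47 on the arrays labelled HEK-BAHD1, against 7.76, 7.97 and 7.86 on those labelled HEK-CT, and was called lower. ZNF69 had 5.51, 5.38 and 5.22 on the arrays labelled HEK-BAHD1, against 5.22, 5.42 and 5.25 on the arrays labelled HEK-CT, and its groups overlapped. Windows of ZNF563 and ZNF443 were also close relatives, while the log2 fold changes were -0.36 and -0.90. Signals differed too, ZNF563 exceeding only 10.9% and ZNF439 15.0% of the tested probe sets, against 42.6% for ZNF443 and 66.8% for ZNF700. CpG content was similar, with a median of 17 sites in windows of called genes, 19 for uncalled ones and 14 over all windows. A match to a motif is a description of these letters and not evidence of binding.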

How the data were processed

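Gene expression was measured in 6 samples on Affymetrix HuGene 1.0 ST arrays. The authors made the deposited log2 values with RMA, which corrects background, normalises between arrays and summarises probes, for which no version is given in the sources used here. Values carry 2 decimals, with no detection calls. The series number differs from the one the paper gives for its arrays, but lines and replicates match.

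Probe sets were named through GEO's platform annotation, updated by gene identifier to RefSeq (GRCh38.p14), which also gave the gene order. Of 28869 probe sets, 19310 name 1 gene, 1752 several and 7807 none here. The 21062 with a gene entered 1 fit of all 6 arrays in limma 3.58.1 (R 4.3.3), with no replicate block. Near-identical paralogues may share probes, and probe sequences were not analysed here. The number of arrays limits the precision.

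The members and lists were chosen with earlier results of these data known. Named with values on every array are up to 4 called members of each block by size of change and the 2 uncalled members with the highest signal; ZNF440, ZNF563, ZNF69 and ZNF700 were added after their values were seen. Differences of medians were rounded before the threshold. The LPE test of the paper was written anew from its description, using 100 bins of intensity and a smoothing spline with 10 degrees of freedom. Both tests were also run on simulated data with variances drawn independently of signal, where LPE made many more false calls than limma. That setting removes the link between signal and error on which LPE relies. It therefore cannot show how LPE performs on these arrays. A split of members by KRAB domain or finger number was not run, since protein sequences were not used here. Alternatives were 2 other scalings, a filter on the dimmest 30%, all probe sets, another variance model, no threshold on medians, the block, LPE, the mean of a gene's probe sets and leaving out each array.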

Additional observations from a re-analysis of the deposited data

How the results depend on the processing

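The number of members called lower was 20, and lay between 16 and 23 in the 9 alternatives that kept all arrays. Among these, the mean of a gene's probe sets only repeats the main fit, since each member has 1 probe set. The number was 22 with arrays centred on their medians, with 20 shared, 21 after quantile normalization again and 23 with trended, robust variances. It was 19 by the LPE test with 17 shared, 18 without the dimmest 30% of probe sets, which leaves 31 members, and 16 with all probe sets. With the replicate number as a block it was 16, and ZNF136, ZNF317, ZNF442 and ZNF555 were not called; same-numbered arrays deviated with correlations of -0.08, 0.07 and -0.04, so the numbers are not shown to pair the arrays. With 1 array left out it ranged from 6 to 14, and fewer arrays also gave fewer calls over all probe sets. No member was called higher under any alternative. The median log2 fold change of the members ranged from -0.28 to -0.23. It is the same by construction with all probe sets, trended variances, the block, no threshold, LPE or the mean of probe sets. With arrays centred, the share of all probe sets called lower was 9.08% and the median of all probe sets -0.03. Signal over background could not be judged, since no detection calls were used here.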

Other observations

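The probe set that lists both ZNF564 and ZNF490 had log2 signals of 6.90, 7.08 and 6.75 on the arrays labelled HEK-BAHD1, against 7.19, 7.23 and 7.26 on those labelled HEK-CT. Its log2 fold change was -0.32 (adjusted p = 0.0484, limma), and the share of each gene in it was not tested. The RefSeq starts of ZNF490 and ZNF791 face away from each other with overlapping promoter windows, and ZNF791, on its own probe set, was at -0.34.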
